A study of Homo sapiens with 6 samples.

Results

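The integrated stress response is the pathway by which cells slow protein synthesis and switch on a repair programme. The 10 genes described here are its core: the eIF2alpha kinases EIF2AK1, EIF2AK2, EIF2AK3 and EIF2AK4, the phosphatase subunits PPP1R15A and PPP1R15B, the transcription factors ATF4, DDIT3 and ATF3, and the pseudokinase TRIB3. They were chosen by name for their role in the pathway and with their siOXTR and siControl levels already known, so their levels and log2 differences are given as a description with no test. All 10 were found among the 17153 genes measured, and all 10 were among the 11655 genes tested.

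The libraries came from SNU449, an established human hepatocellular carcinoma line. One group had been transfected with siOXTR, a small interfering RNA against the oxytocin receptor gene OXTR, and the other with siControl, a control RNA, each for 48 h (n = 3 libraries each). The culture was the same for both groups (RPMI-1640 with fetal bovine serum and antibiotics). The sources used here do not give the RNAs' sequences or say whether siOXTR was a single RNA. Nothing in the labels says that the libraries came from separate cultures, so each p-value rests on library-to-library spread that may be technical. Values are FPKM, fragment counts scaled by gene length and by library depth. This makes levels roughly comparable between genes and between libraries, but small differences between the groups depend on the scaling. Results under other scalings are given at the end.

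The libraries of each group were alike. FPKM values summed to between 424168 and 429456 in siOXTR and to between 412464 and 415902 in siControl, and depth in reads is unknown. Between libraries of a group, Pearson's r across the tested genes (on log2 values, genes not being independent) was 0.997 to 0.998, and between the groups it was 0.922 to 0.923. The targeted gene OXTR was at 6.03, 6.11 and 6.14 FPKM in siOXTR, against 26.47, 26.56 and 24.56 FPKM in siControl. Of 10 hepatocyte markers in the files, 7 were under 1 FPKM in every library, ALB, APOB and HNF4A among them, and the hepatoma markers AFP and GPC3 were under 1 FPKM too. The fibrinogen genes FGA and FGB held most of the remaining hepatocyte signal. The 10 hepatocyte markers summed to 5.61 to 5.90 FPKM in siOXTR and 53.5 to 55.0 FPKM in siControl. The 4 mesenchymal markers summed to between 3382 and 3437 FPKM in siOXTR and to between 1838 and 1926 FPKM in siControl. VIM alone made that sum higher (3390 FPKM in siOXTR, 1835 FPKM in siControl), and the means of the other 3 were lower in siOXTR: FN1 at 1.52 FPKM against 15.2 FPKM in siControl, CDH2 at 7.28 against 24.1 and COL1A1 at 3.94 against 5.54. The part of such shifts in the results below was not tested. In bulk RNA, fewer cells of a type and less RNA per cell cannot be told apart.

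In this pathway each kinase senses a different stress and phosphorylates the same serine of the translation factor eIF2alpha. Phosphorylated eIF2 blocks its own exchange factor eIF2B, which lowers the start of most protein synthesis while a few mRNAs, such as ATF4, are translated better because of short reading frames in their leaders. ATF4 then activates genes of amino acid supply and, with further factors, DDIT3 (which encodes CHOP), ATF3, TRIB3 and PPP1R15A. PPP1R15A brings the phosphatase PP1 to eIF2alpha and so closes the loop. In the liver the pathway is known for its part in the response to amino acid shortage and to overload of the endoplasmic reticulum. Phosphorylation and translation were not measured here.

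Promoter sequences from RefSeq (GRCh38.p14, 250 bases before to 50 after a transcription start) were found for 9 of the 10 genes, in 14 windows. EIF2AK1 was the other. Each window was searched on both strands for 5 motifs: the core of the C/EBP-ATF response element through which ATF4 acts (TGATGNAA), the cyclic AMP response element CRE (TGACGTCA), the AP-1 site (TGANTCA), the endoplasmic reticulum stress response element (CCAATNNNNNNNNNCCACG) and the core of the interferon-stimulated response element (GAAANNGAAA). No match of these overlapped another. The stretches below hold the matches in the phosphatase subunit and transcription factor genes, with the match in capitals and 1 start shown per gene.
PPP1R15A, chr19:48872342-48872391, plus strand, CRE: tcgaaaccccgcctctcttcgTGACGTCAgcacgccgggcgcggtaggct
PPP1R15B, chr1:204412016-204412065, minus strand, C/EBP-ATF core: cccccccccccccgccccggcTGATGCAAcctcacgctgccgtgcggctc
DDIT3, chr12:57520715-57520764, minus strand, AP-1 site: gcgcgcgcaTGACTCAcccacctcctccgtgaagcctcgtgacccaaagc
ATF3, chr1:212565195-212565244, plus strand, C/EBP-ATF core: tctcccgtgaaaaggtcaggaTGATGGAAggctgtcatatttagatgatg

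The CRE of PPP1R15A lay 58 to 51 bases before its start, and 1.85% of all 35116 windows hold this motif. The C/EBP-ATF core lay 227 to 220 bases before the start of PPP1R15B and 191 to 184 bases before the first listed start of ATF3. Of all windows, 3.62% hold it. The AP-1 letters stood 241 to 235 bases before the first listed start of DDIT3 and 212 to 206 bases before that of EIF2AK4, and 7.71% of all windows hold them. EIF2AK2, which interferon is known to induce, held the interferon element core across its start, a motif present in 3.57% of all windows. The endoplasmic reticulum element was in none of the 14 windows and in 0.0769% of all windows. No motif searched was in the other window of ATF3 or in any window of ATF4, TRIB3 or EIF2AK3. This says only that these letters are not there. A match is a run of letters and not a measured binding site.

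**Figure D1:**
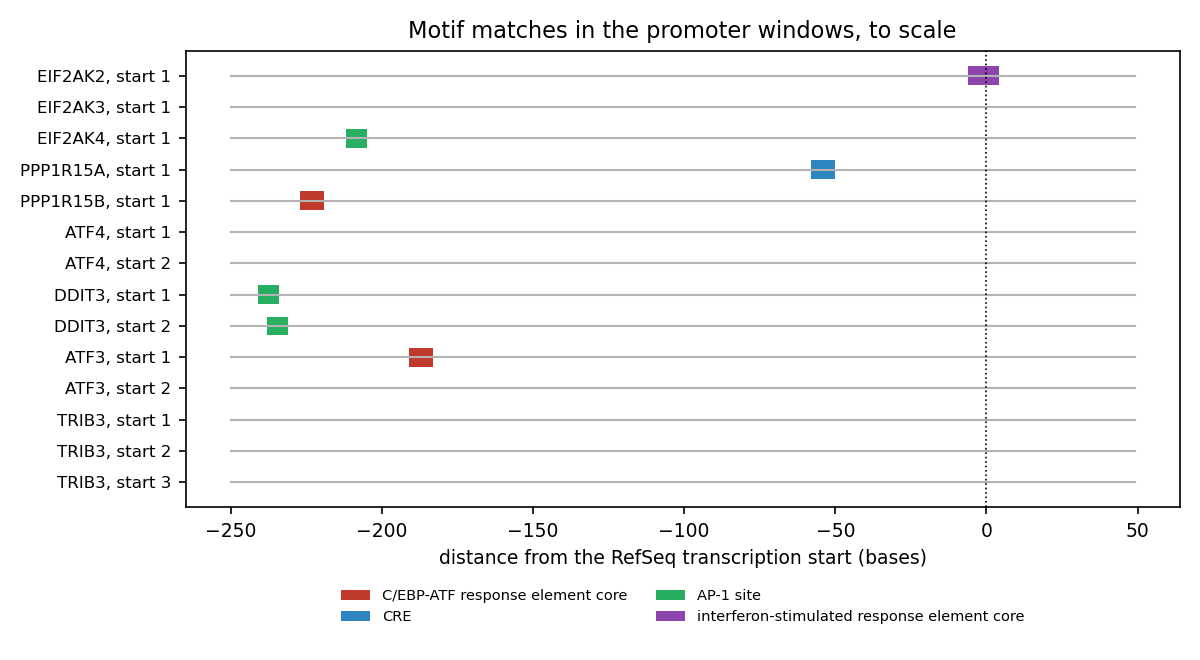
Positions of the motif matches (coloured blocks) in the 14 promoter windows of 9 genes, as the distance in bases from each RefSeq transcription start (dotted line, with upstream to the left). PPP1R15A has a CRE 58 to 51 bases before its start. The C/EBP-ATF core lies further upstream in PPP1R15B and in 1 of the 2 windows of ATF3. The other window of ATF3 and the windows of ATF4, TRIB3 and EIF2AK3 have none of the motifs searched.

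The mRNA leaders were read from the longest principal transcript of each gene in GENCODE release 29. The genes were chosen for their role in the pathway, and that of ATF4 is known to rest on its leader. The shares below are therefore a description, and nothing is read from their distance to the background. Of the 10 genes, 8 carried at least 1 ATG before the annotated start of the protein, and EIF2AK1 and EIF2AK4 carried none. Among the 11578 tested genes with such a transcript, 52.9% carried one, and their median leader was 201 bases long. The 3 principal transcripts of ATF4 had leaders of 280 to 882 bases with 3 to 7 upstream ATGs. In each of these, 1 or 2 of the reading frames that began there ran past the start of the ATF4 protein out of frame, the arrangement for which ATF4 is known. Such an overlapping frame was present in the longest principal transcripts of 4 of the 10 genes (ATF4, DDIT3, ATF3 and EIF2AK3) and of 17.1% of tested genes. PPP1R15A and PPP1R15B each had 2 upstream ATGs, both with a stop before the protein starts. TRIB3 had 3 of that kind in a leader of 553 bases. For DDIT3 and ATF3 the counts depended on the transcript, with 2 to 3 upstream ATGs in DDIT3 and 1 to 5 in ATF3, and an overlapping frame was not in every DDIT3 transcript.

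The 10 genes differed by unlike amounts. Transcripts of the 4 kinases differed by little between the groups. PPP1R15A and the effectors ATF4, DDIT3, ATF3 and TRIB3 were 4.16-fold to 21.9-fold higher in siOXTR, and PPP1R15B was 1.56-fold higher. Across all 11655 genes tested, limma with Benjamini-Hochberg adjustment called 82.5% different at an adjusted p under 0.05, 37.7% higher and 44.8% lower in siOXTR. With a log2 difference of at least 1 in size as well, it called 11.5%, of which 4.71% were higher and 6.84% lower. By the first rule 7 of the 10 genes were higher, 2 lower and 1 neither, and 5 were higher by at least 1 on the log2 scale. Because this contrast was known when the genes were chosen, nothing is read from those counts. Lack of overlap between the groups, given below for single genes, is also only a description, as its share over all genes was not counted. The median log2 difference of the 10 genes was 1.33, and that of all genes tested was -0.06. With 3 libraries a group, the smallest two-sided p of an exact permutation test is 0.1, so no such p is given.

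**Figure D2:**
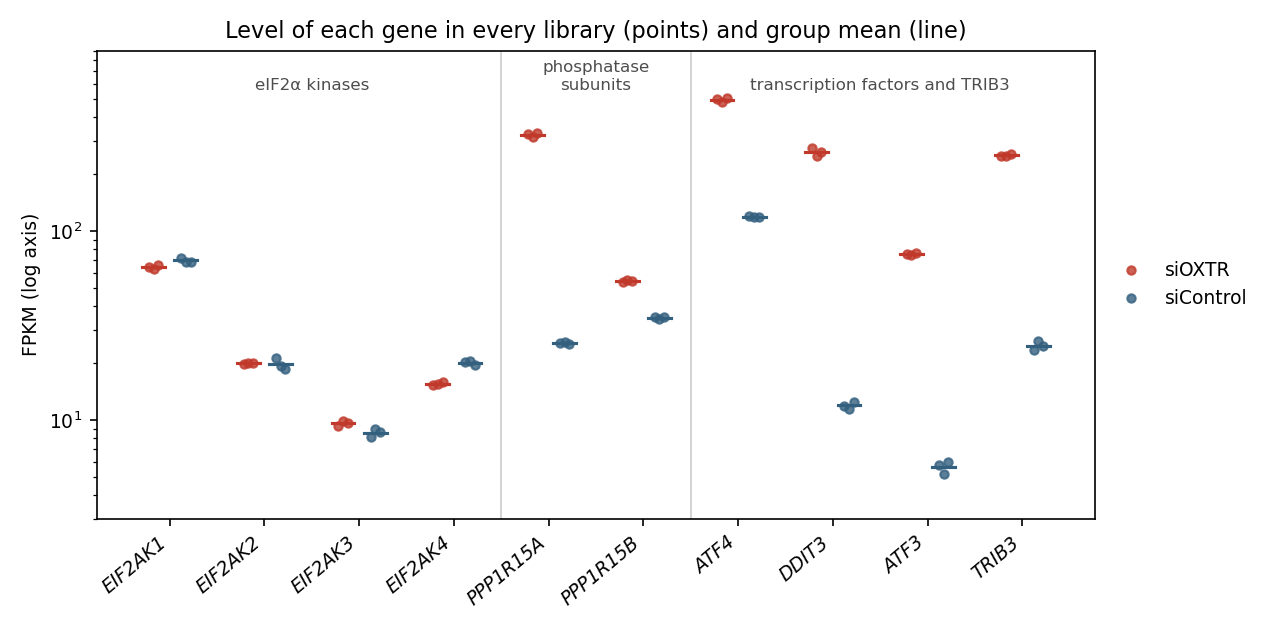
FPKM (log axis) of each of the 10 genes in every library (points) with the group mean (line), siOXTR to the left of siControl in each pair (n = 3 libraries each). For each kinase the groups lie close to each other, while PPP1R15A, ATF4, DDIT3, ATF3 and TRIB3 lie far higher in siOXTR. DDIT3 is at 249 to 276 FPKM in siOXTR against 11.5 to 12.5 FPKM in siControl.

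EIF2AK1 on chromosome 7 encodes HRI, the kinase that senses haem shortage and mitochondrial stress. Its transcript was at 64.31, 63.31 and 66.43 FPKM in siOXTR and at 71.93, 68.82 and 68.93 FPKM in siControl. The siOXTR libraries were slightly lower and did not overlap with siControl. The means were 64.7 ± 1.59 FPKM in siOXTR and 69.9 ± 1.76 FPKM in siControl (SD, n = 3 each), a log2 difference of -0.11 (SE 0.03). Over all alternatives that difference ranged from -0.15 to -0.03. In GENCODE release 29 this gene overlaps AIMP2 and ANKRD61 on the opposite strand, and the sources used here do not say whether counting used strand. AIMP2 averaged 50.5 FPKM in siOXTR and 31.6 FPKM in siControl, and ANKRD61 averaged 1.59 FPKM in siOXTR and 3.08 FPKM in siControl.

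EIF2AK2 on chromosome 2 encodes PKR, the kinase bound and activated by double-stranded RNA. It was at 19.76, 20.01 and 19.94 FPKM in siOXTR and at 21.17, 19.42 and 18.59 FPKM in siControl. The siOXTR values lay within the range of siControl, so the groups overlapped. The log2 difference was 0.01 (SE 0.05), and over all alternatives it ranged from -0.03, with each library rescaled to one total, to 0.09 with median-ratio scaling. The siControl libraries were the more variable, with a coefficient of variation of 6.68%, against 0.648% in siOXTR. The gene overlaps GPATCH11 on the opposite strand by 35 bases, and GPATCH11 averaged 4.82 FPKM in siOXTR and 12.3 FPKM in siControl.

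EIF2AK3, also on chromosome 2, encodes PERK, the kinase in the membrane of the endoplasmic reticulum that senses unfolded proteins there. It had the lowest level of the 4 kinases in every library, at 9.30, 9.92 and 9.63 FPKM in siOXTR and at 8.16, 8.98 and 8.59 FPKM in siControl. All siOXTR libraries lay above all siControl libraries, by a small margin. The means were 9.62 ± 0.310 FPKM in siOXTR and 8.58 ± 0.410 FPKM in siControl (SD, n = 3 each), with a log2 difference of 0.15 (SE 0.05).

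EIF2AK4 on chromosome 15 encodes GCN2, the kinase activated by uncharged transfer RNA when amino acids run short. It showed the widest gap of the kinases, at 15.29, 15.41 and 15.83 FPKM in siOXTR and 20.20, 20.45 and 19.66 FPKM in siControl. Every siOXTR library was below every siControl library. The log2 difference was -0.35 (SE 0.04), a 1.30-fold lower mean in siOXTR.

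The 4 kinase transcripts summed to 110 ± 1.83 FPKM in siOXTR and 118 ± 2.90 FPKM in siControl (SD, n = 3 each). EIF2AK1 made up 58.3% to 59.4% of that sum in siOXTR and 58.5% to 59.5% in siControl, so its share was the same within the spread of the libraries. EIF2AK4 supplied 14.1% to 14.2% of the sum in siOXTR and 16.6% to 17.4% in siControl. For EIF2AK3 the share was 8.56% to 9.13% in siOXTR and 6.72% to 7.63% in siControl. EIF2AK2 had 17.8% to 18.4% in siOXTR and 16.1% to 17.4% in siControl. The shares of EIF2AK3 and EIF2AK2 were thus higher and that of EIF2AK4 lower in siOXTR, each by a few percentage points and with no overlap between the groups.

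PPP1R15A on chromosome 19 encodes GADD34, the subunit made under stress that recruits PP1 to eIF2alpha. It was at 324.56, 315.95 and 331.22 FPKM in siOXTR, against 25.57, 25.74 and 25.19 FPKM in siControl. The groups were far apart, with a spread of at most 2.36% within either. The log2 difference was 3.62 (SE 0.03). PPP1R15B on chromosome 1 encodes CReP, the subunit that is made without stress and keeps eIF2alpha phosphorylation low in resting cells. Its level was 53.75, 54.97 and 54.07 FPKM in siOXTR and 34.92, 34.39 and 35.28 FPKM in siControl. This pair of groups did not overlap either, but the ratio of means was only 1.56 (log2 difference 0.62, SE 0.03).

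Which of the 2 subunit transcripts was the more abundant differed between the groups. PPP1R15A stood at 6.04, 5.75 and 6.13 times the level of PPP1R15B in the siOXTR libraries and at 0.732, 0.749 and 0.714 times that level in the siControl libraries. Their summed transcript level was 378 ± 7.19 FPKM in siOXTR and 60.4 ± 0.202 FPKM in siControl (SD, n = 3 each).

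ATF4 on chromosome 22 encodes the central transcription factor of the pathway, which is controlled mainly at translation. Its transcript was the most abundant of the 10 in every library, at 501.8, 479.61 and 502.96 FPKM in siOXTR and 120.52, 118.45 and 118.09 FPKM in siControl. The groups stood well apart, and the spread within each was at most 2.66%. The means gave a ratio of 4.16 and a log2 difference of 2.05 (SE 0.03). GENCODE release 29 holds 4 pseudogenes named after ATF4, and the sources used here do not say how reads shared with them were assigned.

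DDIT3 on chromosome 12 encodes CHOP, a bZIP factor that pairs with C/EBP proteins and is known for promoting cell death under lasting stress. It was at 275.62, 249.29 and 262 FPKM in siOXTR, against 11.91, 11.48 and 12.51 FPKM in siControl. It had the largest difference of the 10 genes, 21.9-fold by the means, and a log2 difference of 4.34 (SE 0.04). Ranked by level among all 17153 genes, it was between place 194 and 210 in the siOXTR libraries and between place 6025 and 6371 in the siControl libraries. In GENCODE release 29 DDIT3 overlaps MARS1 and MBD6 on the opposite strand and AC022506.1, a gene with no value used here, on its own strand, where counting by strand would not separate them. MARS1, which encodes the methionyl-tRNA synthetase, averaged 142 FPKM in siOXTR and 57.8 FPKM in siControl, and MBD6 averaged 7.30 FPKM in siOXTR and 6.07 FPKM in siControl. The part of shared reads in the level of DDIT3 was not tested.

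ATF3 on chromosome 1 encodes a bZIP factor of the ATF family that is induced by many stresses and can repress its own targets. Its level was 75.41, 74.71 and 76.27 FPKM in siOXTR, against 5.78, 5.17 and 5.96 FPKM in siControl. It was the lowest of the 10 in siControl and the fifth highest in siOXTR, and the groups did not overlap. The ratio of means was 13.4, with a log2 difference of 3.53 (SE 0.05). As the level in siControl was low, the added 1 FPKM shrinks this log2 value, and with an added 0.01 FPKM in its place it was 3.74.

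TRIB3 on chromosome 20 encodes a Tribbles pseudokinase that binds ATF4 and CHOP and restrains them. It was at 249.66, 249.55 and 256.11 FPKM in siOXTR and at 23.45, 26.1 and 24.74 FPKM in siControl. The siOXTR libraries were about as high as those of DDIT3 and were 10.2-fold above siControl by the means (log2 difference 3.30, SE 0.04).

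**Figure D3:**
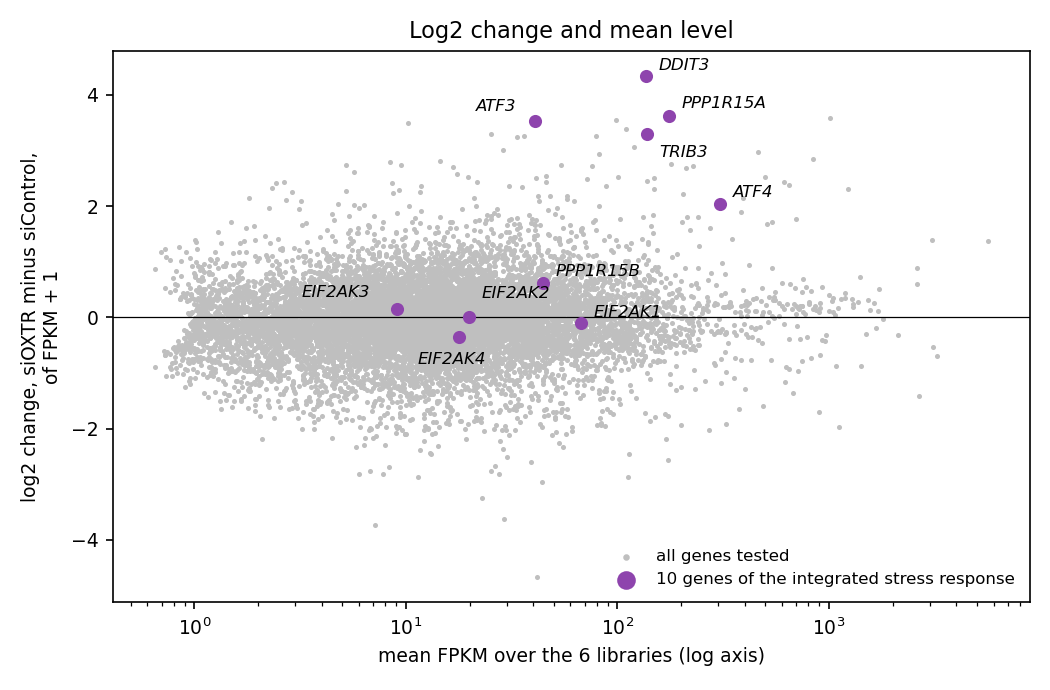
Log2 difference, siOXTR minus siControl, of FPKM + 1 (vertical axis) against the mean FPKM over the 6 libraries (horizontal log axis) for all 11655 genes tested (grey) and the 10 genes described (purple). DDIT3, PPP1R15A, ATF3, TRIB3 and ATF4 lie between 2.05 and 4.34, and the 4 kinases between -0.35 and 0.15.

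Among all genes tested, ranked from the highest log2 difference, DDIT3 was at place 1, PPP1R15A at 2, ATF3 at 5, TRIB3 at 9 and ATF4 at 69. PPP1R15B was at place 1406, and the kinases were between place 4154 (EIF2AK3) and place 8254 (EIF2AK4). Within the pathway the order by level also changed. In siOXTR the order of the means was ATF4, PPP1R15A, DDIT3, TRIB3, ATF3, EIF2AK1, PPP1R15B, EIF2AK2, EIF2AK4 and EIF2AK3, and of neighbours in it only the ranges of DDIT3 and TRIB3 overlapped. In siControl it was ATF4, EIF2AK1, PPP1R15B, PPP1R15A, TRIB3, EIF2AK4, EIF2AK2, DDIT3, EIF2AK3 and ATF3. There the ranges of PPP1R15A and TRIB3 overlapped, as did those of EIF2AK4 and EIF2AK2. DDIT3 stood above all 4 kinases in siOXTR, and above EIF2AK3 alone of them in siControl.

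The effectors differed by more than ATF4 did, so their levels relative to it also differed between the groups. DDIT3 was at 0.520 to 0.549 times the level of ATF4 in the siOXTR libraries and at 0.0969 to 0.106 times in the siControl libraries. For PPP1R15A the ratio to ATF4 was 0.647 to 0.659 in siOXTR and 0.212 to 0.217 in siControl, and for ATF3 it was 0.150 to 0.156 in siOXTR and 0.0437 to 0.0505 in siControl. TRIB3 stood at 0.497 to 0.520 times ATF4 in siOXTR and at 0.195 to 0.220 times in siControl. Of the 4 ratios, that of DDIT3 differed most between the groups as a fold, and that of PPP1R15A differed most as a difference. DDIT3 and TRIB3 were nearly equal in siOXTR (ratio 0.999 to 1.10), whereas DDIT3 was at 0.440 to 0.508 times the level of TRIB3 in siControl. The 5 transcripts ATF4, DDIT3, ATF3, TRIB3 and PPP1R15A together made up 0.330% ± 0.00685 of the summed FPKM in siOXTR and 0.0452% ± 0.000112 in siControl (SD, n = 3 each).

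**Figure D4:**
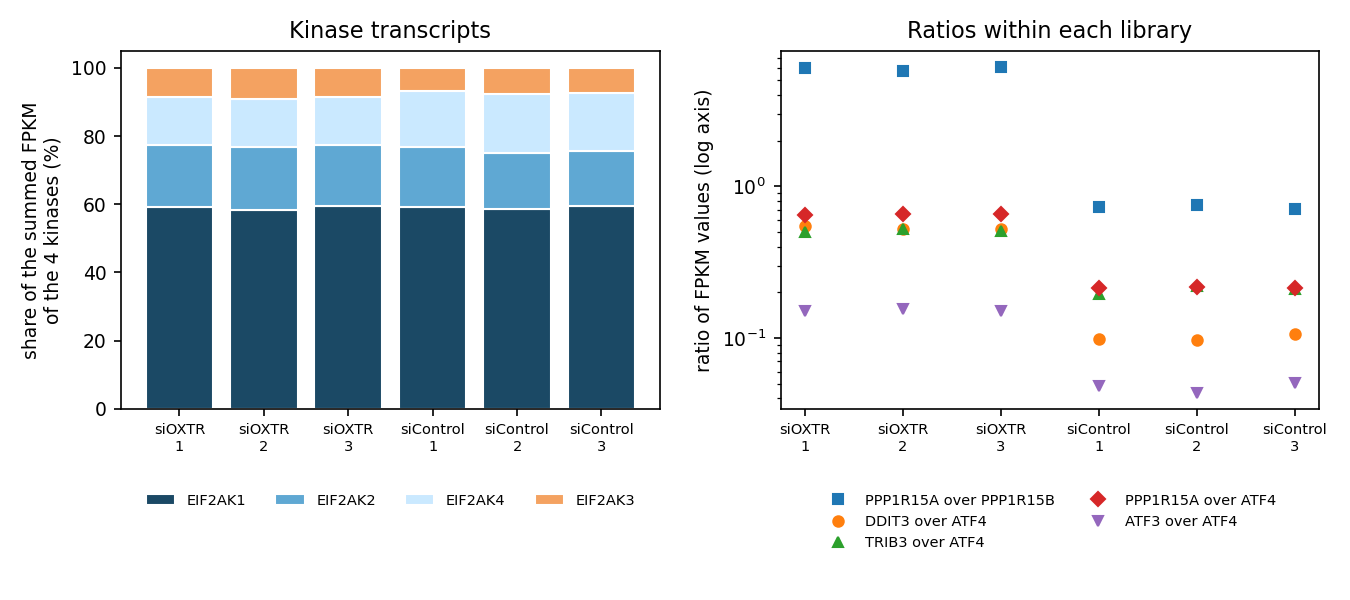
Left, share of the summed FPKM of the 4 kinases taken by each, per library. Right, ratios between genes within each library (log axis). The kinase shares are close between the groups, with EIF2AK1 at 58.3% to 59.5% throughout, while the ratio of PPP1R15A to PPP1R15B is 5.75 to 6.13 in siOXTR and 0.714 to 0.749 in siControl.

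Genes around these 10 were read from 11 lists of known partners and targets. All of the lists were written with earlier results of these data known, so their counts and directions are not independent evidence. Each count below is of genes that passed limma at an adjusted p under 0.05 over all genes tested. The background for each is the 37.7% of genes that were higher and the 44.8% that were lower. Of the 8 subunits of eIF2 and its exchange factor eIF2B, 5 rose, 1 fell and 2 did not pass (median log2 change 0.21, against -0.06 for all genes tested). EIF2S1, which encodes eIF2alpha itself, rose slightly, to 50.8 ± 1.78 FPKM in siOXTR against 46.3 ± 0.972 FPKM in siControl (log2 change 0.13, SE 0.03, limma adjusted p = 0.00322). EIF2S2, for the beta subunit, had the largest rise of the list (log2 change 0.77). The gamma subunit gene EIF2S3 (0.28) and the eIF2B genes EIF2B2 (0.52) and EIF2B4 (0.30) rose as well. EIF2B1 fell (-0.39), and without siOXTR replicate 1 the count of subunits that fell was 2, since EIF2B3 then passed. EIF2B5, the catalytic subunit of the exchange factor, was at 24.8 ± 1.73 FPKM in siOXTR and 24.5 ± 0.825 FPKM in siControl, and did not pass (adjusted p = 0.784).

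Regulators of the kinases went both ways, with 5 of 10 higher, 4 lower and 1 not passing (median log2 change 0.11). Calls at the margin did not hold under every alternative. OMA1, counted as higher (0.17), had overlapping groups and lost its call without the filter on low values (limma adjusted p = 0.0633), among other settings. GCN1, counted as lower (-0.13), lost its call under median-ratio scaling (limma adjusted p = 0.3) and without siOXTR replicate 1 (limma adjusted p = 0.064). HSPA5, the chaperone BiP that holds PERK inactive until unfolded proteins draw it away, rose to 824 ± 6.54 FPKM in siOXTR against 251 ± 3.34 FPKM in siControl (log2 change 1.71, SE 0.02, limma adjusted p = 1.23e-12). DNAJC3, which encodes the kinase inhibitor P58IPK, rose (0.41), as did NCK1 (0.66), an adaptor that counters eIF2alpha phosphorylation, and IMPACT (0.20), an inhibitor of GCN2. PRKRA, which encodes the PKR activator PACT, fell to 31.9 ± 1.58 FPKM in siOXTR against 49.1 ± 1.65 FPKM in siControl (log2 change -0.61). TARBP2, whose product inhibits PKR, fell by a like amount (-0.62). DELE1, which relays mitochondrial stress to HRI, fell too (-0.34). HSP90AA1 did not pass (0.04, adjusted p = 0.218), and it passed in opposite directions under quantile (-0.07, adjusted p = 0.0122) and median-ratio scaling (0.12, adjusted p = 0.00749).

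The catalytic subunits of PP1, which the PPP1R15 proteins bring to eIF2alpha, did not move together. PPP1CB rose to 109 ± 3.64 FPKM in siOXTR against 54.2 ± 0.871 FPKM in siControl (log2 change 1.00, SE 0.03, limma adjusted p = 3.28e-10). PPP1CA fell (-0.52), and PPP1CC fell to 51.2 ± 2.22 FPKM in siOXTR against 93.8 ± 2.84 FPKM in siControl (-0.86). PPP1CB thus had the highest level of the 3 in siOXTR, and PPP1CA had it in siControl. Of the Tribbles relatives of TRIB3, TRIB1 rose to 38.3 ± 0.765 FPKM in siOXTR against 9.97 ± 0.454 FPKM in siControl (log2 change 1.84). TRIB2 was near the floor in both groups and was not tested.

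Partners and relatives of ATF4, CHOP and ATF3 were mostly higher. Of 25 such bZIP genes 22 were tested, of which 18 rose, 2 fell and 2 did not pass (median log2 change 0.70). CEBPB, whose product pairs with both ATF4 and CHOP, rose to 365 ± 7.79 FPKM in siOXTR against 55.6 ± 1.20 FPKM in siControl (log2 change 2.69, SE 0.03, limma adjusted p = 2.86e-13). CEBPG, another ATF4 partner, rose to 46.0 ± 0.181 FPKM in siOXTR against 13.8 ± 0.352 FPKM in siControl (1.67). JUN, a component of AP-1 (1.39), CEBPD (1.15) and NFE2L1, a regulator of proteasome genes (0.88), were the next of the 5 largest increases at a mean of at least 5 FPKM. The 2 that fell were ATF6B (-0.52) and ATF5 (-0.41). ATF5 encodes a factor made under stress by the same kind of translational control as ATF4. Its transcript was at 9.36 ± 0.378 FPKM in siOXTR and at 12.8 ± 0.592 FPKM in siControl.

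Targets of ATF4 known from other studies rose almost throughout. Of 43 listed 42 were tested, of which 39 rose and 3 fell, with a median log2 change of 1.29. By at least 1 on the log2 scale 26 rose and 0 fell, where 4.71% of all genes rose and 6.84% fell by that much. Like the other lists, this list was written with earlier results of these data known and is not independent evidence of its direction. The 5 largest increases were in GDF15, a secreted stress cytokine (log2 change 3.58), the leucine sensor gene SESN2 (3.30), HERPUD1, of protein degradation at the endoplasmic reticulum (3.26), CHAC1, which encodes an enzyme that breaks down glutathione (2.81), and DDIT4, which encodes an inhibitor of mTORC1 (2.76). The 3 that fell were the lipoprotein receptor gene VLDLR (-0.76), ALDH18A1, of proline synthesis (-0.53), and ATF5. FGF21 was listed at 0 in all siControl libraries, averaged 0.193 FPKM in siOXTR and was not tested.

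Targets ascribed to CHOP were mixed. Of 8 tested, 5 rose, 1 fell and 2 did not pass (median log2 change 1.07). BBC3, which encodes the cell death protein PUMA, rose to 17.2 ± 0.580 FPKM in siOXTR against 1.73 ± 0.201 FPKM in siControl (log2 change 2.74, SE 0.06, limma adjusted p = 4.26e-11). DNAJB9, a co-chaperone of BiP, rose (2.18), and so did CHAC1 and TRIB1, which stand on other lists too. TNFRSF10B, which encodes the death receptor DR5, rose by less (0.30). ERO1A, the oxidase that refills the disulfide pathway of the endoplasmic reticulum, fell to 24.4 ± 0.287 FPKM in siOXTR against 51.9 ± 1.48 FPKM in siControl (-1.06). BCL2 (-0.02, adjusted p = 0.823) and the cell death gene BCL2L11 (-0.10, adjusted p = 0.135) did not pass, although BCL2L11 did without siOXTR replicate 2 (adjusted p = 0.0410), which makes 2 that fell.

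The other branches of the unfolded protein response, which are not part of the eIF2 pathway, showed 4 of 7 genes higher and 3 lower (median log2 change 0.35). XBP1 rose to 121 ± 2.24 FPKM in siOXTR against 35.4 ± 0.122 FPKM in siControl (log2 change 1.75), and the sensor kinase gene ERN1, whose product splices XBP1, rose (0.99). ATF6 rose (0.35), whereas the proteases that cut it to its active form fell, MBTPS1 by 0.61 and MBTPS2 by 0.84 on the log2 scale. Factors of start codon choice and re-initiation, the steps by which leaders such as that of ATF4 are read, rose in 8 of 10 cases and fell in 2 (median log2 change 0.47). EIF2A, an initiation factor distinct from eIF2, rose to 82.3 ± 2.08 FPKM in siOXTR against 36.3 ± 0.321 FPKM in siControl (1.16). EIF1 (0.95), EIF5 (0.80), EIF3D (0.70) and the re-initiation factor gene DENR (0.61) rose. The rises of EIF5B (0.08) and EIF4G2 (0.08) were small. Both calls were lost with each library rescaled to one total (limma adjusted p = 0.185 for EIF5B and 0.109 for EIF4G2). MCTS1, which encodes the partner of DENR, fell slightly (-0.15, adjusted p = 0.0277). That call was lost under quantile (adjusted p = 0.395) and median-ratio scaling (adjusted p = 0.199), without siOXTR replicate 3 (adjusted p = 0.0874) and without siControl replicate 1 (adjusted p = 0.109), leaving 1 that fell.

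Genes that share a trigger with PKR moved down more often than up. Of 24 interferon-stimulated genes and sensors of double-stranded RNA in the files, 17 were tested, of which 2 rose, 11 fell and 4 did not pass (median log2 change -0.24). OAS3, an enzyme activated by double-stranded RNA, fell to 3.21 ± 0.209 FPKM in siOXTR against 9.01 ± 0.174 FPKM in siControl (log2 change -1.25, SE 0.05, limma adjusted p = 4.78e-09). IFI6 (-1.17), OAS1 (-1.15) and the RNA sensor gene DDX58 (-0.49) fell too. IRF9 (0.88) and STAT2 (0.16) rose, and the count that rose was 4 without siControl replicate 2 and 5 under median-ratio scaling. EIF2AK2, also an interferon-stimulated gene, had the overlapping values given above.

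Haem, whose shortage activates HRI, is made and broken down by the products of 12 genes tested, of which 4 rose, 4 fell and 4 did not pass (median log2 change 0.01). Genes of synthesis enzymes that fell included ALAD (-1.04), UROS (-0.87) and CPOX (-1.34). CPOX was at 9.41 ± 0.499 FPKM in siOXTR and 25.4 ± 0.0981 FPKM in siControl. ALAS1, the first and rate-limiting enzyme outside red cells, rose slightly (0.18), and PPOX rose (0.25). HMOX1, the inducible haem oxygenase that breaks haem down, rose to 214 ± 3.83 FPKM in siOXTR against 24.9 ± 0.101 FPKM in siControl (log2 change 3.06, SE 0.03, limma adjusted p = 1.23e-13). BLVRB, of the next step of breakdown, rose too (0.89), whereas HMOX2, the constitutive oxygenase, did not pass (-0.04, adjusted p = 0.397). HMOX2 passed as lower without siControl replicate 3 (adjusted p = 0.0315). The others that did not pass also changed call under some alternatives. UROD (adjusted p = 0.00306) and FECH (adjusted p = 0.0104) passed as higher under median-ratio scaling. BLVRA passed as lower with each library rescaled to one total (adjusted p = 0.0068).

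**Figure D5:**
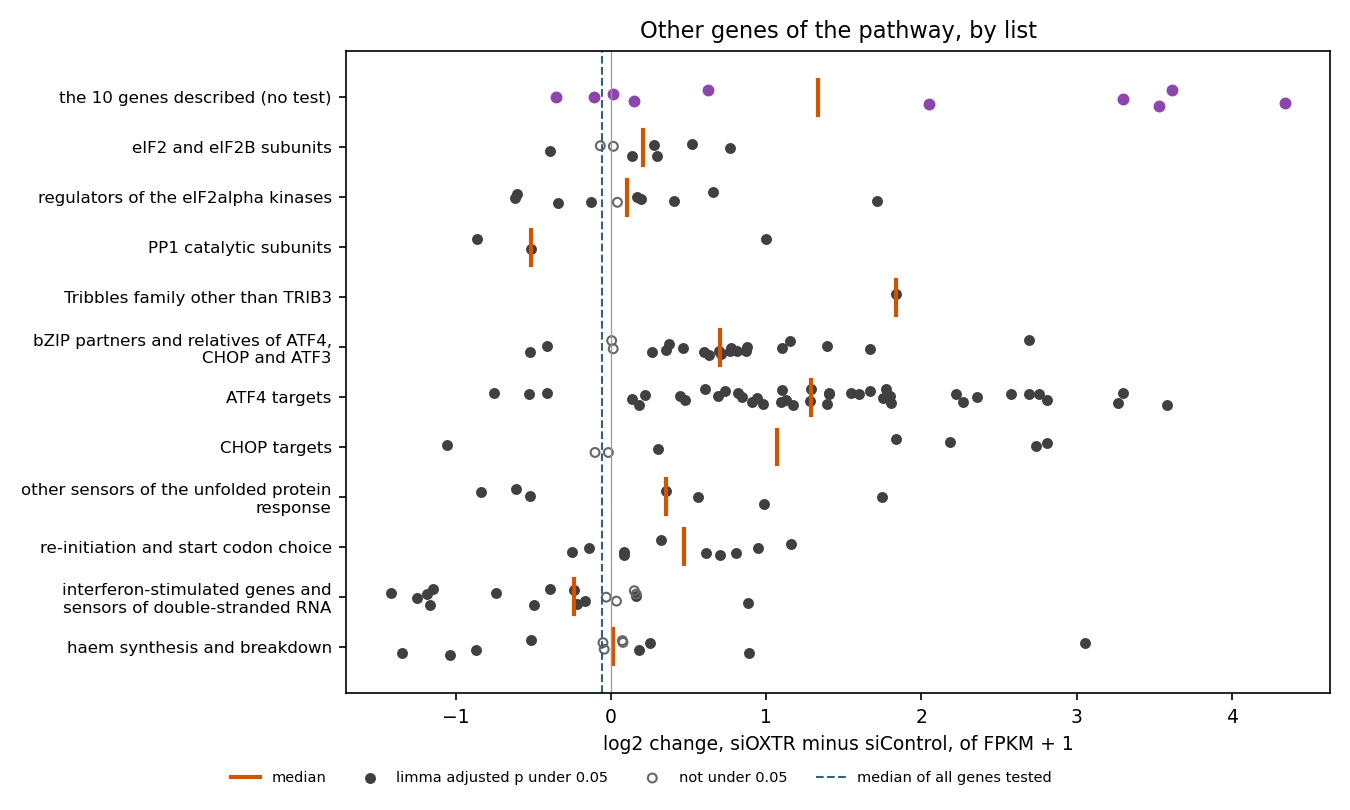
Log2 change, siOXTR minus siControl, of FPKM + 1 for the tested genes of 11 lists around the pathway (filled, limma adjusted p under 0.05; open, not), with the 10 genes described on top in purple and without a test. The orange bar is each list's median and the dashed line the median of all genes tested, -0.06. ATF4 targets have a median of 1.29 and interferon-stimulated genes one of -0.24.

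The genes most like single members over the 6 libraries were found among 9087 others with a mean of at least 5 FPKM, by the distance between their log2 values less the siControl mean. As this measure rests on the contrast that was known, it is a description. Nearest to DDIT3 were PPP1R15A (distance 1.27), GDF15 (1.33) and HKDC1, a gene of the hexokinase family (1.40), none of them close, as DDIT3 had the highest log2 difference of all genes tested. ATF4 had far nearer neighbours, SIK1B (distance 0.09), the hexosamine enzyme gene GFPT1 (0.09) and IFRD1 (0.10), and SIK1B and IFRD1 had log2 changes of 2.01 and 2.08. Nearest to EIF2AK3 were RAB6A, SLC7A5 and CBX6, each at a distance of 0.06. SLC7A5, a transporter gene on the list of ATF4 targets, had a log2 change of 0.13.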

How the data were processed

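The authors deposited 1 table of FPKM values per library, per the file headers, with 17153 genes, each with an NCBI ID and a symbol. Libraries followed the BGISEQ-500 protocol, per the labels. Aligner, counter and genome build: not given in the sources used here. Read depth is unknown: of 6274 low values, 20.4% lay within 0.1 of a whole multiple of their gene's lowest value, where an even spread gives 20%, so no count model was used and precision rests on the spread between libraries.

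Values were taken as log2(FPKM + 1), and the 11655 genes with at least 1 FPKM in at least 3 libraries went into a fit of siOXTR against siControl by limma 3.58.1 under R 4.3.3, two-sided, with a mean-variance trend and Benjamini-Hochberg adjustment over all genes tested (threshold 0.05). Folds are ratios of mean FPKM. The script was tested on simulated data.

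The members and the 11 lists (153 entries, 152 in the files) were chosen with earlier results of these data known. Named are all members and OXTR, genes of lists with up to 12 entries, and the 5 largest increases and decreases past the threshold, with a mean of at least 5 FPKM, in longer lists. The interferon motif, marker genes, FGF21 and genes overlapping members lie outside that rule. Some genes that the rule names are not reported here. Alternatives were pseudocounts, filters, scalings, robust moderation, a replicate block and leaving out each library.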

Additional observations from a re-analysis of the deposited data

How the results depend on the processing

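Over the 15 alternatives, the log2 difference of 9 of the 10 members kept its sign: DDIT3 ranged from 4.31 to 4.45, PPP1R15A from 3.56 to 3.70, ATF3 from 3.48 to 3.74, TRIB3 from 3.26 to 3.38, ATF4 from 2.01 to 2.13, PPP1R15B from 0.59 to 0.70, EIF2AK3 from 0.12 to 0.22, EIF2AK1 from -0.15 to -0.03 and EIF2AK4 from -0.41 to -0.28. EIF2AK2 ranged from -0.03 to 0.09. The median over all genes tested was 0.003 under quantile, 0.02 under median-ratio and -0.10 under TPM scaling. Of the 77 other genes named or eligible, 12 changed their call or sign under at least 1 alternative. HSP90AA1 had a log2 change of -0.074 under quantile scaling (adjusted p = 0.0122) and of 0.12 under median-ratio scaling (adjusted p = 0.00749). The list counts that moved by over 1.5 times were small. Start codon factors that fell numbered 1 under quantile and 1 under median-ratio scaling, and 1 to 2 on leaving out single libraries. Interferon-stimulated genes that rose numbered 4 under quantile and 5 under median-ratio scaling, and 2 to 4 on leaving out single libraries. Of eIF2 and eIF2B subunits, 2 fell under TPM scaling and 1 to 2 on leaving out single libraries, and of CHOP targets 1 to 2 fell on leaving out single libraries. The causes were not tested.

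Libraries with the same replicate number did not deviate together (correlations of -0.012, -0.073 and 0.039), and not every library correlated best with its own number. From 3 libraries a group, these values cannot show whether libraries of the same number shared a culture or a batch. With the replicate block 4388 genes were higher and 5205 lower, against 4395 and 5218 without it. Depth in reads is unknown, so the precision of low values such as FGF21 cannot be stated.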
